A study of Brassica rapa with 30 samples.

Results

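The 163 genes described here had reads in the Brassica rapa cultivar Chiifu and practically none in the cultivar LP08. They were chosen from the counts themselves: among 41018 gene rows whose IDs begin with Bra, a member had at most 3 reads summed over the 15 LP08 libraries and a mean of at least 5 CPM over the 15 Chiifu libraries, where CPM is a gene's count over the sum of all gene counts of the library, times 1000000. They made up 0.892% of the 18280 such rows that reached 5 CPM in Chiifu. RNA came from whole plants of LP08, which the labels call early flowering, and of Chiifu, which they call late flowering. Greenhouse plants of 3 weeks formed the group without cold (NV). The other groups had 1 day of cold (V1), 20 days (V20), 40 days (V40), or 40 days followed by 10 days of warmth (V40T10). Every cultivar and treatment had 3 libraries. No mutation, transgene or agent is named in the labels, and the plants of the later treatments were also older, so that age and cold cannot be told apart.

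Plant cultivars of 1 species differ in gene content, and a gene that is present and transcribed in one line can be deleted, altered in sequence or silent in another. Neighbouring genes, among them tandem copies, can be gained or lost together. Chiifu is a Chinese cabbage, and IDs beginning with Bra were given to the gene models of its reference genome, while the series' title places oilseed-type B. rapa at the centre of the study. Vernalization, a long exposure to cold, is known to prepare many crucifers for flowering. The sources used here paired none of the 163 IDs with a gene name, so no role can be given to any of them, and the tissue could not be checked against named markers.

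All 163 members together had 126 counts among the 300437137 gene counts of LP08, against 917780 among the 333353602 gene counts of Chiifu. These values chose the members and are a description. In LP08, 82 members had no count in any library, 49 had 1 count, 19 had 2 and 13 had 3, and no member had more than 3 counts in a single library. A sum of 0 over the LP08 libraries allows a level of up to 0.00999 CPM, a limit that covers counting error only. The few LP08 counts were spread unevenly, with 1 in the NV libraries, 57 at V1, 31 at V20, 10 at V40 and 27 at V40T10, and V1 replicate 2 held 51 of them, while the next highest library held 21. A count of 0 does not tell apart a gene that LP08 lacks, a gene that it does not transcribe and a gene whose LP08 reads did not align, and none of these was tested.

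In Chiifu the members were of modest level. Their mean CPM ran from 5.02 to 81.0 with a median of 10.8, while all Bra rows at 5 CPM or more had a median of 20.6. The means of 74 members lay between 5 and 10 CPM, of 58 between 10 and 25, of 20 between 25 and 50, and of 11 at 50 or above. At 99 members the mean of every Chiifu treatment reached 5 CPM, and at 12 only 1 or 2 treatments did, so that these 12 were chosen through the treatments in which they were high. Over the 12 libraries other than V40T10, 12 members had a mean under 5 CPM, and over the 12 other than NV 4 did. Just inside the threshold were Bra039330, Bra030926 and Bra000607 with 5.02, 5.15 and 5.18 CPM, and just outside it Bra032572, Bra038029 and Bra006019 with 4.998, 4.97 and 4.92 CPM. On the LP08 side, 8 further rows at 5 CPM in Chiifu had 4 counts in LP08 and 11 had 5. The reverse rule, with the cultivars exchanged, found 95 rows with counts only in LP08.

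**Figure D1:**
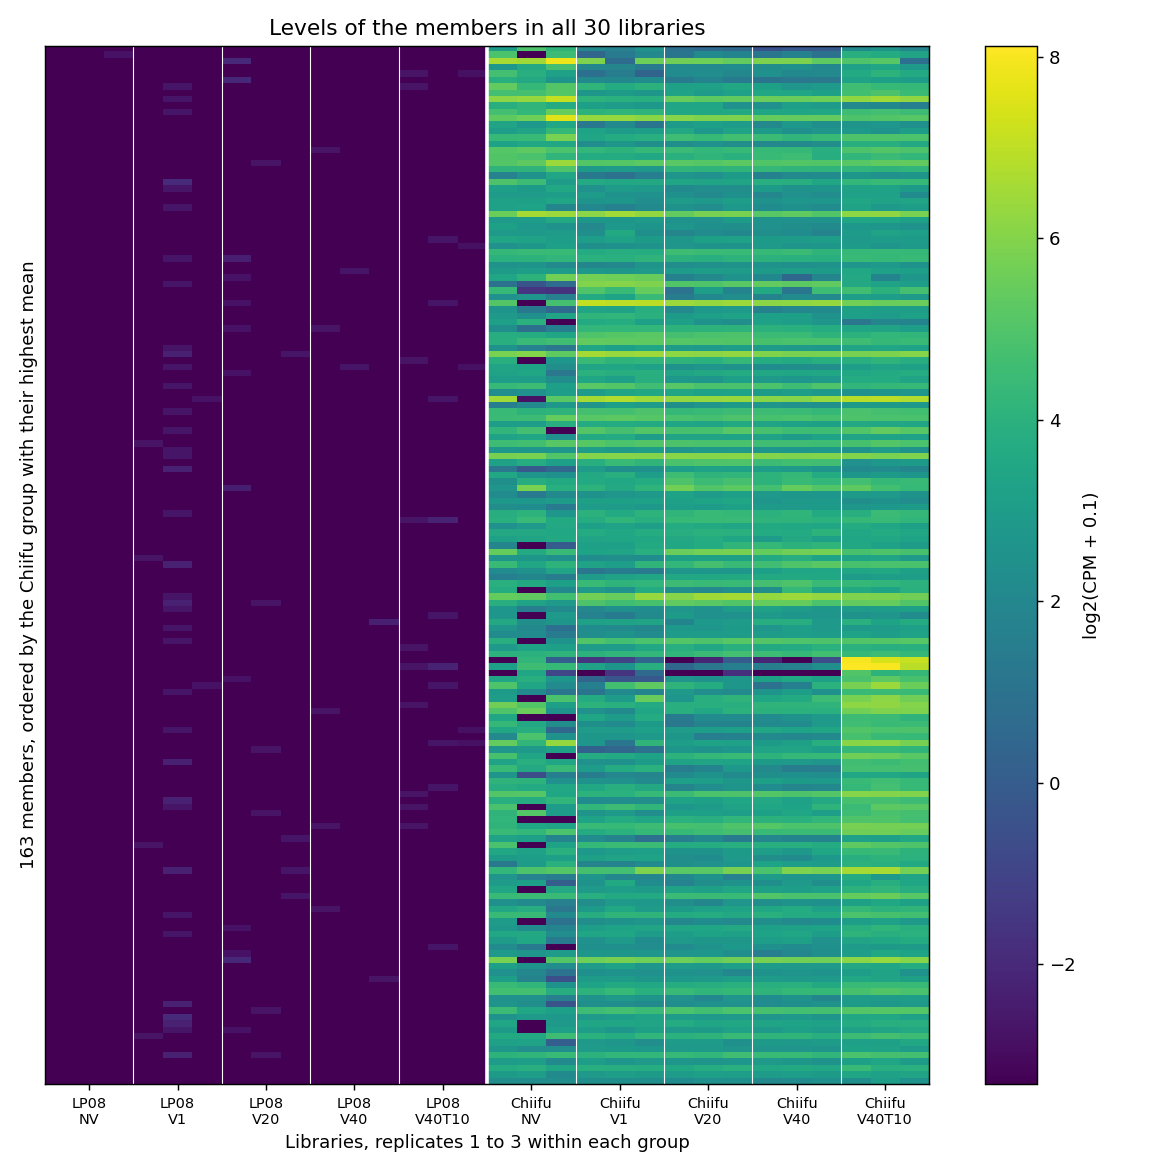
Level of each of the 163 members (rows, ordered by the Chiifu treatment with the highest mean) in each of the 30 libraries (columns, LP08 left, Chiifu right), as log2(CPM + 0.1). The LP08 side is dark apart from scattered low counts, 51 of the 126 in V1 replicate 2, and dark cells on the Chiifu side gather in the libraries labelled NV replicate 2 and NV replicate 3.

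Gene-assigned counts ranged from 16926920 to 23529886 per LP08 library and from 18231123 to 26595834 per Chiifu library. At these depths a count of 0 in a library allows up to 0.113 to 0.177 CPM. Nothing in the labels tells whether replicate libraries were made from different plants, and the p-values below may thus rest on technical spread alone. The 3 Chiifu NV libraries stood apart from each other: log2 CPM over rows at 5 CPM or more correlated with r = 0.842 to 0.925 between them, against at least 0.977 between libraries of the other Chiifu groups. Over the members alone r was 0.336 to 0.577 in Chiifu NV and at least 0.872 within the other Chiifu groups.

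The members were themselves among the rows on which the Chiifu NV libraries disagreed. In the library labelled Chiifu NV replicate 2, 18 members had at most 3 counts, 17 of them none, although each of the 18 had at least 1 CPM in NV replicate 1 and in all 12 libraries of the later treatments. In NV replicate 3 there were 6 such members, 2 of which, Bra017552 and Bra017584, were missing from NV replicate 2 as well. Bra026915 shows the contrast in 1 group: it had 1231, 0 and 618 counts in NV replicates 1 to 3. Bra009762 had 396, 566 and 0 counts, so that the library without it was the other one. Of all members, 11% were missing in this way from NV replicate 2 and 3.68% from NV replicate 3, and of the 18117 other Bra rows at 5 CPM or more 0.0662% and 0.149% were. In the 12 later Chiifu libraries, 2 members alone, Bra000137 and Bra010385, had 3 counts or fewer in any library.

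**Figure D2:**
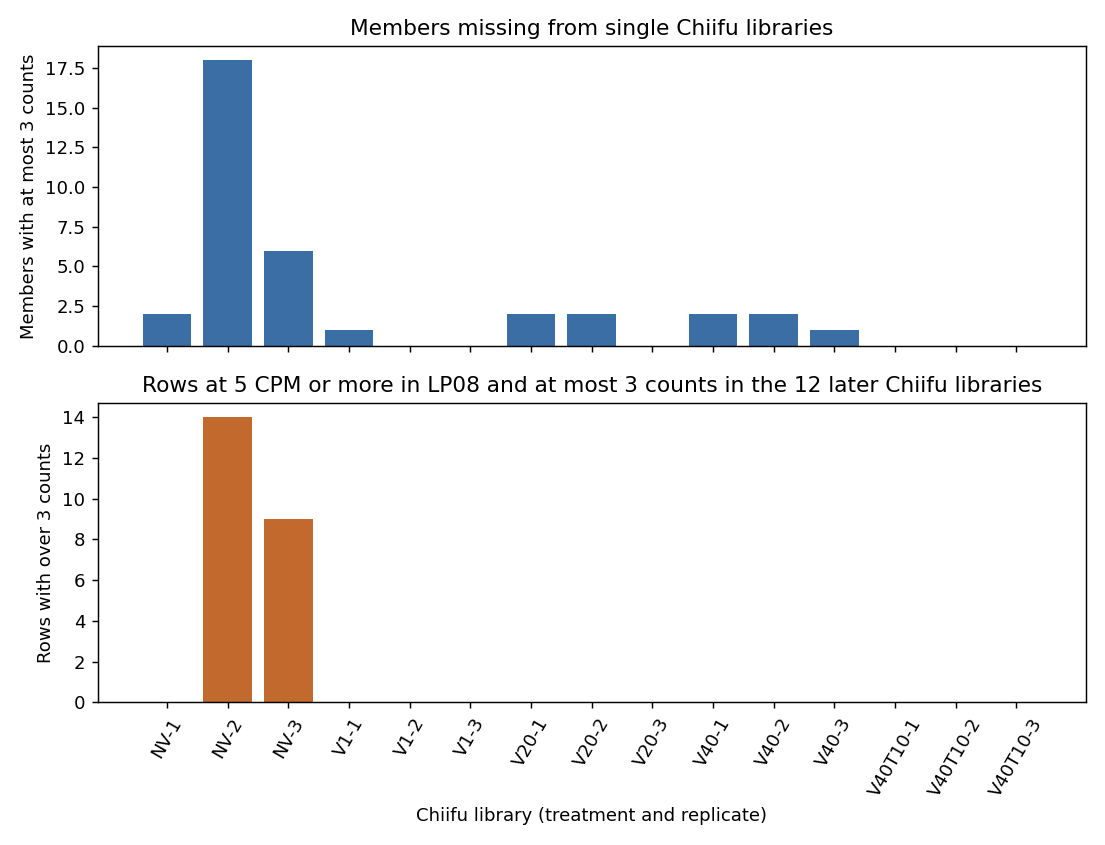
Upper panel: number of the 163 members with at most 3 counts in each Chiifu library. Lower panel: number of rows with more than 3 counts in that library among 120 rows that had at least 5 CPM in LP08 and at most 3 counts over the 12 later Chiifu libraries. NV replicate 2 has the tallest bar in both panels (18 and 14), NV replicate 3 has 6 and 9, and NV replicate 1 has 2 and 0.

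Rows of the opposite kind showed the reverse in the same libraries. Of 120 Bra rows with at least 5 CPM in LP08 and at most 3 counts over the 12 later Chiifu libraries, 14 had more than 3 counts in Chiifu NV replicate 2 and 9 in NV replicate 3, 8 of them in both, while NV replicate 1 had none. Bra014535 averaged 57.1 CPM in LP08 and had 0, 21.5 and 56.7 CPM in Chiifu NV replicates 1 to 3. Bra034270 averaged 39.7 CPM in LP08 and had 0, 16.8 and 0 CPM in those libraries. In 2 of the 3 libraries labelled Chiifu NV, some rows otherwise counted only in Chiifu were thus missing while some rows otherwise counted only in LP08 were present. Neither library lost all of the members, and the source of the pattern was not tested. Counts of calls against NV are therefore also given without these libraries, as are values of single genes where that changes a call or moves a fold change by over 1.5 times.

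Some members had another member beside them in ID number. The numbers of 18 members formed 9 pairs of consecutive IDs, and no run was longer. Members had 120 neighbours, by ID, at 5 CPM or more in Chiifu, of which 18 (15%) were members, while 0.660% of the 18192 neighbours of all Bra rows at that level were. With steps of up to 10 IDs allowed, 30 members fell into 13 clusters, 9 of 2 and 4 of 3. The sources used here do not say how far the order of IDs follows the order of genes on the chromosomes. With the Chiifu minimum lowered to 1 CPM there were 441 members, 50 of which formed 23 runs, 20 of 2, 2 of 3 and 1 of 4.

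That run of 4, Bra027596 to Bra027599, held 3 of the members. Bra027596 had 3 counts in LP08 and 21.1 ± 3.92 CPM in Chiifu (SD over 15 libraries), Bra027598 had 1 count and 10.7 ± 3.22 CPM, and Bra027599 had 1 count and 11.2 ± 4.47 CPM. Between them, Bra027597 had no count in LP08 and 1.88 ± 0.743 CPM in Chiifu. The next row, Bra027600, was present in both cultivars, averaging 4.09 ± 4.51 CPM over the LP08 libraries, against 2.64 ± 2.55 CPM over those of Chiifu. Among the 18 rows that flank the 9 pairs, 7 had at most 3 counts in LP08 and at least 30 in Chiifu, 2 had no count in either cultivar, and 9 had more than 3 counts in LP08. Of these 9, 5 reached at least 50% of their Chiifu mean in LP08 and 3 stayed under 20% of it. Pair Bra035717 and Bra035718 stood between rows of both cultivars: Bra035716 had 9.77 ± 2.22 CPM in LP08 and 9.58 ± 2.62 CPM in Chiifu, and Bra035719 6.84 ± 2.05 and 4.54 ± 1.17 CPM.

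Some rows that missed the rule but lay next to a member by ID were low in LP08 as well. Of 102 such rows at 5 CPM or more in Chiifu, 11 (10.8%, 95% Wilson interval 6.13 to 18.3%, counting error only) had an LP08 mean under 10% of their Chiifu mean. The share was 2.89% at 2 to 5 steps, 2.29% at 6 to 10 steps and 1.40% at more than 10 steps. Bra020643, beside Bra020644, averaged 0.0597 ± 0.139 CPM over the LP08 libraries and 180 ± 177 CPM over the Chiifu libraries (SD, n = 15 each). Bra008055, which stands 1 ID before the member Bra008056 and 2 after the member Bra008053, had 0.0230 ± 0.0654 CPM in LP08 and 162 ± 63.5 CPM in Chiifu. Bra009214, beside Bra009215, had 0.165 ± 0.0761 and 94.8 ± 22.1 CPM, and Bra015764, beside Bra015765, 0.0390 ± 0.0837 and 78.4 ± 15.4 CPM. These 4 rows were picked after their values were seen, as the highest in Chiifu of the 11, and their LP08 sums of 6 to 49 counts kept them out of the rule.

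**Figure D3:**
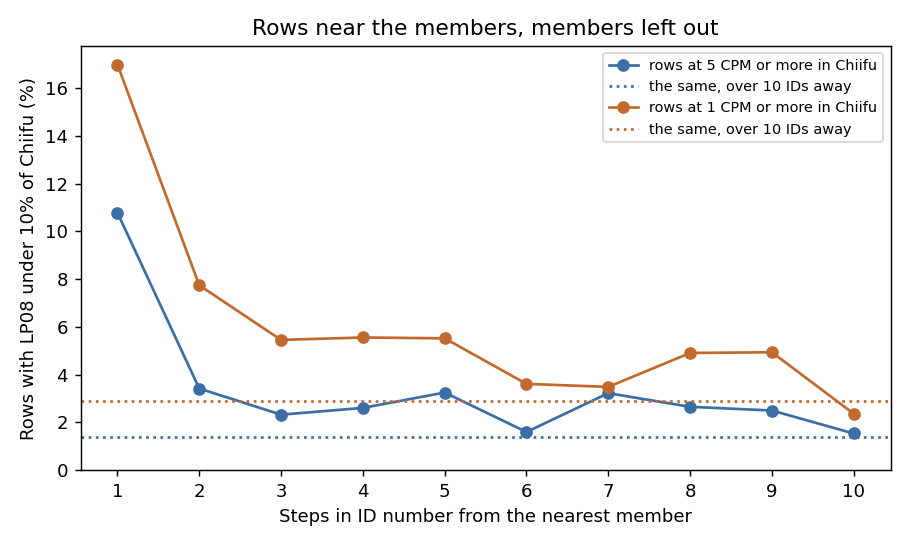
Percent of rows with an LP08 mean under 10% of their Chiifu mean, by steps in ID number from the nearest of the 163 members, for rows at 5 CPM or more and at 1 CPM or more in Chiifu, members left out. Dotted lines give rows more than 10 IDs away (1.40% and 2.89%), and the first step stands highest, at 10.8% and 17.0%.

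Rows with counts only in LP08 lay near few of the members: 6 members (3.68%) had such a row within 10 IDs, and 3.70% of other rows at 5 CPM or more in Chiifu did. In 1 case the rows were direct neighbours, Bra037612 with 9.64 CPM in LP08 and the member Bra037613 with 19.2 CPM in Chiifu. That is 0.614% of the members, beside 0.409% of other rows at 5 CPM or more in Chiifu. Another contrast between neighbouring IDs, at lower level and noticed in the data, lay inside a cluster. Bra026914 had 2.15 ± 0.853 CPM in LP08 and 0.00560 ± 0.0149 CPM in Chiifu, and it stood between the members Bra026913 and Bra026915, which had 2 and 3 counts over all LP08 libraries and means of 70.5 and 50.3 CPM in Chiifu.

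In places picked after the counts were seen, gaps in the Chiifu NV libraries fell on nearby IDs. How many of the 22 members missing from NV replicate 2 or 3 lay near another such row was not counted. Bra026913 had 724, 0 and 499 counts in NV replicates 1 to 3, Bra026915 had 1231, 0 and 618, and Bra026909, a row of 4.69 CPM in Chiifu with no LP08 count, had 62, 0 and 18. Rows between them were present in NV replicate 2, such as Bra026910 with 79 counts and Bra026911 with 32. At the pair Bra017552 and Bra017553, the first had 227, 0 and 0 counts and the second 209, 186 and 64. Bra017551, the row before it, had 41, 0 and 0 counts and 10 to 91 in the later Chiifu libraries, so that it shared the gap of Bra017552.

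The response to cold was tested within Chiifu alone, since the members have no LP08 levels to compare. Levels from here on are scaled CPM, that is, CPM computed on library sizes after TMM scaling, which removes shifts shared by most genes. Tests are edgeR's quasi-likelihood test on the 15 Chiifu libraries, with Benjamini-Hochberg adjustment over all 27224 rows tested, and calls were made below an adjusted p of 0.05. All 163 members were among the rows tested. In RNA from whole plants, fewer cells of a type and less RNA per cell cannot be told apart.

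With all libraries, most members changed with treatment, though a smaller share of them than of all rows tested. Any difference among the groups was called for 95 members, or 58.3%, beside 73.9% of all rows tested and 75.6% of Bra rows at 5 CPM or more. Without NV replicate 2 it was called for 106 members (65%), beside 76.3% of all rows tested. Where NV replicates 2 and 3 are both left out, NV replicate 1 alone stands for NV and is assumed to vary like the libraries of the other groups. In that fit the members' share came near that of all rows tested. The smaller share among the members was thus not seen without these NV libraries. With all libraries in the fit, no call of any kind was made for 54 members, and the same count over all rows was not made. The steadiest was Bra008471, with group means of 5.36 ± 0.565 at NV, 5.33 ± 0.0533 at V1, 5.02 ± 0.408 at V20, 4.77 ± 0.710 at V40 and 5.41 ± 1.5 scaled CPM at V40T10 (SD, n = 3 each).

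After 1 day of cold, 28 members were higher than at NV, beside 22.4% of all rows tested, and 39 were lower, beside 25.6%. For the members these are 17.2% and 23.9%, close to the background for falls and under it for rises. Without NV replicates 2 and 3 the counts were 35 higher (21.5%), beside 23.5% of all rows tested, and 49 lower (30.1%), beside 24.1%. The median log2 fold change of the members was 0.00, against -0.05 over all rows tested. Of the 22 members missing from NV replicate 2 or 3, 3 were among those called higher and 1 among those called lower. The 4 members that met the rule through NV were all among the 39 called lower.

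The strongest rise belonged to Bra016440. It had 65.6, 68.5 and 61.7 scaled CPM at V1, against 2.01, 0.714 and 1.84 at NV, a log2 fold change of 5.43 ± 0.28 (SE, adjusted p = 9.67e-09). All 3 V1 libraries were far above all 3 NV libraries, and the gene stayed high in the later cold, at 32.6 ± 2.15 scaled CPM at V20 and 41.0 ± 2.10 at V40. Bra037554 had 9.48, 9.15 and 12.7 scaled CPM at V1, against 3.87, 0 and 1.12 at NV, a log2 fold change of 2.63 ± 0.65 (adjusted p = 0.00444). It is one of the members missing from NV replicate 2. Its log2 fold change was 2.03 without that library, 4.40 without NV replicate 1 and 1.41 without NV replicates 2 and 3, and with V1 and NV alone in the fit its adjusted p was 0.101.

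The deepest falls after 1 day were those of Bra006799 and Bra021487. Bra006799 had 1.29, 0.715 and 0.812 scaled CPM at V1, against 11.6, 15.4 and 7.70 at NV (log2 fold change -3.62 ± 0.28, adjusted p = 4.08e-07). Bra021487 had 1.81, 2.81 and 1.22 scaled CPM at V1, against 27.4, 15.1 and 11.3 at NV (log2 fold change -3.20 ± 0.34, adjusted p = 6.14e-06). The groups did not overlap for either gene. The fall of Bra021487 was -3.83 without NV replicates 2 and 3, and without NV replicate 1 it was -2.76. Bra006799 was partly back at V20, with 6.01 ± 0.175 scaled CPM, and at V40, with 10.2 ± 1.55, it did not pass the test against NV (log2 fold change -0.19 ± 0.23, adjusted p = 0.543).

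After 20 days of cold, 24 members were higher than at NV, beside 19.6% of all rows tested, and 39 were lower, beside 21.4%. After 40 days, 28 were higher, beside 20%, and 42 lower, beside 22.5%. The members' shares were 14.7% higher and 23.9% lower at V20, and 17.2% higher and 25.8% lower at V40. With NV replicates 2 and 3 left out, 28 members were higher and 46 lower at V20, beside 22.7% and 21.7% of all rows tested, and 28 were higher and 41 lower at V40, beside 22.4% and 21.4%. These comparisons share the NV libraries with that at V1, so their calls are not independent of each other. Of the 4 members that met the rule through NV, 3 were among those called lower at V20 and 3 at V40. Of the 3 that met it through V20, 1 was among those called higher there. Bra016440 and Bra037554 again had the greatest rises at both times: Bra016440 by 4.44 ± 0.27 at V20 and 4.76 ± 0.27 at V40 on the log2 scale (adjusted p = 6.60e-08 and 3.37e-08), Bra037554 by 3.02 ± 0.65 and 3.45 ± 0.66 (adjusted p = 0.00232 and 9.58e-04). For Bra037554 these were 1.82 and 2.24 without NV replicates 2 and 3 and 4.78 and 5.21 without NV replicate 1, and with only the groups compared in the fit the adjusted p was 0.0850 and 0.0568.

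Among the members lower under prolonged cold, Bra021596 had the greatest difference. It averaged 2.84 CPM over the 12 libraries other than NV and met the rule through its NV level, so its values are a description. It had 0.663, 0.790 and 0.897 scaled CPM at V40, against 7.78, 31.1 and 21.4 at NV (log2 fold change -4.67 ± 0.46). Its V20 libraries, at 1.79, 1.49 and 1.28, lay between these (-3.73 ± 0.43 against NV). As its lowest NV library was replicate 1, leaving out NV replicates 2 and 3 gave -3.30 at V40 and -2.38 at V20, and leaving out NV replicate 2 alone -4.20 and -3.27.

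Bra015811 and Bra017974 followed. Bra015811 had 1.37, 2.25 and 2.82 scaled CPM at V20, against 9.20, 24.1 and 24.8 at NV (log2 fold change -3.15 ± 0.48, adjusted p = 1.66e-04; -2.07 without NV replicates 2 and 3). Bra017974 had 4.02, 1.35 and 3.79 scaled CPM at V40, against 11.2, 17.1 and 62.7 at NV (log2 fold change -3.30 ± 0.62, adjusted p = 8.52e-04). Its NV libraries differed widely, and the fall was -2.20 without NV replicate 3 and -1.86 without NV replicates 2 and 3. After 1 day of cold this gene had still been at 50.9 ± 5.58 scaled CPM, which did not pass the test against NV (log2 fold change 0.75 ± 0.55, adjusted p = 0.278) and did without NV replicate 3 (1.85, adjusted p = 0.00239).

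**Figure D4:**
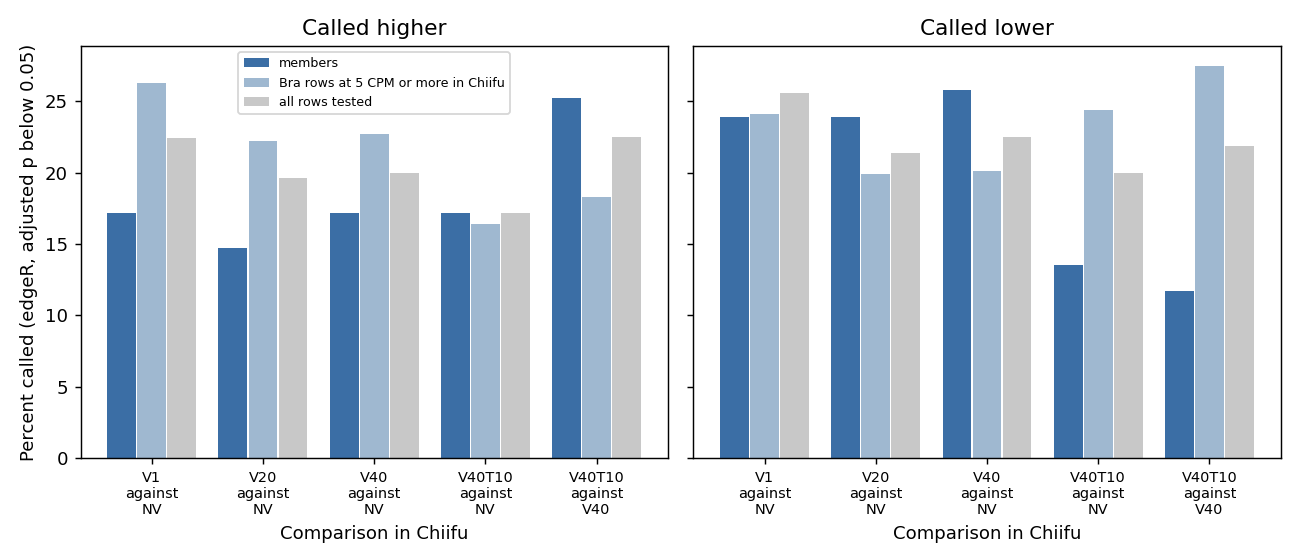
Percent of rows called higher (left) and lower (right) in each Chiifu comparison by edgeR's quasi-likelihood test (adjusted p below 0.05), for the 163 members, for Bra rows at 5 CPM or more in Chiifu and for all rows tested. The members' bars stand apart most after the return to warmth, at 25.2% higher and 11.7% lower for V40T10 against V40, beside 18.3% and 27.5% of Bra rows at 5 CPM or more.

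After 10 days back in warmth more members were higher than lower. Against V40, 41 members were higher at V40T10, beside 22.5% of all rows tested, and 19 were lower, beside 21.9%. Among the members these were 25.2% and 11.7%, while Bra rows at 5 CPM or more had 18.3% higher and 27.5% lower. The median log2 fold change of the members was 0.25, against 0.03 over all rows tested and -0.09 over Bra rows at 5 CPM or more. Without NV replicates 2 and 3, which are in neither group and enter only through the shared fit, the counts were 74 higher and 30 lower, beside 31.9% and 30.6% of all rows tested. They were 58 higher and 28 lower without NV replicate 3 alone, beside 29.9% and 29.7% of all rows, and 70 higher and 33 lower with only V40T10 and V40 in the fit, beside 32.9% and 32.5%. Of the 12 members that met the rule through V40T10, 4 were among the 41 called higher and none among those called lower.

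The summed level of the members was 2739 ± 415 scaled CPM at NV, 2636 ± 88.5 at V1, 2458 ± 16.3 at V20, 2514 ± 43.3 at V40 and 3279 ± 281 at V40T10 (SD, n = 3 each). The lowest V40T10 library, at 2958, lay above the highest V40 library, at 2555, and below the highest NV library, at 3151. Much of the difference lay in Bra000137 and Bra015811, which were singled out after their values were seen. Summed over the other 161 members, V40T10 had 2930 ± 189 scaled CPM, against 2510 ± 43.0 at V40, and the lowest V40T10 library, at 2731, was still above the highest V40 library, at 2551. Of the members, 67 (41.1%) had their highest group mean at V40T10 and 23 (14.1%) their lowest, while of Bra rows at 5 CPM or more 23.3% had their highest and 30.4% their lowest there. The 12 members that met the rule through V40T10 are in these counts and in the sum over all members. Of them, the sum over 161 members left out Bra000137 alone. These shares and sums thus rest in part on values that the rule used. Over Bra rows at 5 CPM or more, plain CPM would give a median log2 ratio 0.28 higher than scaled CPM for V40T10 against V40. It would be 0.37 higher for V40T10 against NV, and 0.07 to 0.16 higher for the cold treatments against NV.

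Bra000137 and Bra010385 differed most between V40T10 and V40, and both were at or near 0 in V40. Over the 12 libraries other than V40T10 they averaged 1.93 and 1.08 CPM, so both met the rule through V40T10, and their values are a description. Bra000137 had 211, 149 and 123 scaled CPM at V40T10, against 0.133, 0 and 0.571 at V40 (log2 fold change 9.33 ± 1.53), which in counts are 12291 against 17 over 3 libraries each. Bra010385 had 26.9, 14.5 and 16.9 scaled CPM at V40T10, against no count in any V40 library. Against 3 counts in each V40 library this is an at least 148-fold higher level. Among the NV libraries both genes were highest in replicate 2: Bra000137 had 0, 19.2 and 1.19 scaled CPM in NV replicates 1 to 3, and Bra010385 had 0, 11 and 0.527. Bra000137 had the greatest relative spread of group means among the members.

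Falls against V40 were led by genes that had been high in the cold. Bra016440 had 10.0, 8.17 and 6.91 scaled CPM at V40T10, against 42.8, 38.7 and 41.5 at V40 (log2 fold change -2.29 ± 0.23, adjusted p = 5.28e-06). Bra005776 had 4.58, 5.89 and 6.32 scaled CPM at V40T10, against 23.6, 25.9 and 25.6 at V40 (log2 fold change -2.16 ± 0.18, adjusted p = 9.03e-07). For both, the groups were well apart. Bra016440 remained above its NV level at V40T10 (log2 fold change 2.47 ± 0.26, adjusted p = 1.71e-05), whereas Bra005776 was below its own (-1.04 ± 0.17, adjusted p = 4.77e-04).

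Against NV, 28 members were higher at V40T10, beside 17.2% of all rows tested, and 22 lower, beside 20%. The members' shares were 17.2% and 13.5%, and their median log2 fold change was 0.26, against 0.02 over all rows tested. Without NV replicates 2 and 3 the counts were 37 higher and 20 lower, beside 18.3% of all rows in each direction. Without NV replicate 1 they were 43 and 27, beside 19.3% and 22.4%. There were 13 lower without V40T10 replicate 1, beside 15.7%, and 13 without V40T10 replicate 3, beside 16.6%. Of the 28 called higher, 5 had met the rule through V40T10, and of the 22 called lower, 2 had met it through NV. Bra015811, which had fallen at V20, had 234, 225 and 104 scaled CPM at V40T10, against 9.20, 24.1 and 24.8 at NV (log2 fold change 3.28 ± 0.45, adjusted p = 1.15e-04; 4.35 without NV replicates 2 and 3). For Bra000137 the log2 fold change against NV was 4.54 ± 1.13, and 8.24 without NV replicate 2, the NV library in which it was high.

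The falls at V40T10 against NV were less even. Bra038406 had 3.47, 3.35 and 2.54 scaled CPM at V40T10, against 15.8, 18.4 and 15.9 at NV (log2 fold change -2.42 ± 0.28, adjusted p = 2.77e-05), and the means of the 3 treatments in cold lay between these. Bra000706 had 26, 30.6 and 1.44 scaled CPM at V40T10, against 106, 94.1 and 280 at NV (log2 fold change -3.05 ± 1.01, adjusted p = 0.0290). The call for Bra000706 was lost without NV replicate 3 (adjusted p = 0.0653), without V40T10 replicate 1 (0.0633), without V40T10 replicate 3 (0.0615) and without NV replicates 2 and 3 (0.0902). It was also lost with only V40T10 and NV in the fit (0.0844), with the replicate block (0.0523) and with limma voom and a weight per group (0.278), which are all 7 of the 23 alternatives that lost it. This gene was low in a single library elsewhere too, with 63.0, 1.62 and 49.6 scaled CPM at V1.

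Consecutive IDs did not always respond alike. How often neighbouring rows of all genes were called alike was not computed, so the counts of pairs have no background beside them. In V1 against NV, 3 of the 9 pairs had both members called in the same direction, 2 had opposite calls, 2 had 1 call and 2 had none. At V20 and at V40, 2 pairs had both members called in the same direction, 5 had 1 call and 2 had none. In V40T10 against V40, 1 pair was called in the same direction, 1 in opposite directions, 5 had 1 call and 2 had none. In each of these comparisons, Bra017552 with Bra017553 was among the pairs with 1 call. That call was of Bra017553, which met the rule through NV and V40T10, so these counts rest in part on values that the rule used. Without NV replicates 2 and 3, 5 pairs were called in the same direction there, 1 in opposite directions and 3 had 1 call, and at V1 2 pairs were called in the same direction, 1 in opposite directions, 4 had 1 call and 2 had none. Likewise without these libraries, 2 pairs were called in the same direction at V20, 3 had 1 call and 4 had none, and at V40 there were 3 of each kind.

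Bra017242 and Bra017243 were both called higher than at NV in every other treatment. Bra017243 had 13.9 ± 4.12 scaled CPM at NV, 22.3 ± 1.37 at V1, 27.6 ± 2.10 at V20, 32.5 ± 2.34 at V40 and 45.2 ± 0.477 at V40T10, and its log2 fold change against NV at V40T10 was 1.70 ± 0.17 (adjusted p = 1.05e-05). Bra017242 peaked at V1, with 10.6 ± 1.19 against 4.08 ± 1.80 scaled CPM at NV (log2 fold change 1.36 ± 0.23, adjusted p = 2.68e-04; 0.77 without NV replicates 2 and 3). The pair thus shared the direction but not the time of its highest level. NV replicate 1 was the highest NV library for both. Without NV replicates 2 and 3, Bra017243 lost its call at V1 (log2 fold change 0.24, adjusted p = 0.122) and Bra017242 lost its calls at V20 and V40 (0.30 and 0.26, adjusted p = 0.157 and 0.224).

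Pairs Bra029123 with Bra029124 and Bra032485 with Bra032486 were called lower after 1 day of cold, and in part later. Bra029124 did not pass the test at V20 (log2 fold change -0.39, adjusted p = 0.0740), nor Bra032485 at V40 (-0.64, adjusted p = 0.0943). Counts of Bra032485 were 662, 498 and 146 in NV replicates 1 to 3 and 346, 333 and 282 at V40. Of its NV libraries, replicate 3 alone was thus below those of V40. Bra029123 had 6.04 ± 0.934 scaled CPM at V1, against 10.9 ± 2.18 at NV (log2 fold change -0.84 ± 0.16, adjusted p = 8.62e-04), and Bra029124 had 6.32 ± 1.26, against 12.8 ± 2.42 (-1.02 ± 0.17, adjusted p = 2.58e-04). At V40T10 both were higher than at V40, Bra029124 by 1.52 ± 0.17 on the log2 scale (adjusted p = 1.12e-05) and Bra029123 by 0.45 ± 0.16 (adjusted p = 0.0374). Bra032486 had 2.91 ± 0.616 scaled CPM at V20, against 13 ± 7.30 at NV (-2.15 ± 0.36, adjusted p = 3.84e-04), and Bra032485 had 10.1 ± 0.5, against 21.9 ± 11.5 (-1.12 ± 0.30, adjusted p = 0.00880). These falls were -2.82 and -1.68 without NV replicates 2 and 3.

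Opposite responses were seen in Bra037370 with Bra037371 and in Bra032569 with Bra032570. Bra037370 had 6.81, 7.77 and 6.85 scaled CPM at V1, against 27.5, 27 and 42.5 at NV (log2 fold change -2.18 ± 0.19, adjusted p = 1.19e-06), while Bra037371 had 16.4, 14.5 and 15.5, against 10.2, 10.9 and 2.70 (0.95 ± 0.33, adjusted p = 0.0286). Bra032569 was higher at V1, with 67.3 ± 1.18 against 52.0 ± 10.7 scaled CPM at NV (0.37 ± 0.13, adjusted p = 0.0339), and Bra032570 lower, with 19.1 ± 1.33 against 37.4 ± 2.36 (-0.97 ± 0.14, adjusted p = 6.61e-05). At V40T10 against V40 that pair was reversed: Bra032569 was lower (-0.36 ± 0.13, adjusted p = 0.0415) and Bra032570 higher (0.50 ± 0.14, adjusted p = 0.00847). The call of Bra032569 at V1 was lost without NV replicates 2 and 3 (0.19, adjusted p = 0.114).

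The other pairs changed less. Bra027598 and Bra027599 passed no test with all libraries, and their means over the 5 treatments stayed between 8.59 and 15.2 scaled CPM. Both were called higher, without NV replicates 2 and 3, at V40T10 than at V40 (0.46 and 0.39, adjusted p = 0.00751 and 0.0388). Bra032605 was higher at V1 (log2 fold change 0.50 ± 0.12, adjusted p = 0.00379) and its neighbour Bra032606 was not called there, while Bra032606 was lower at V40T10 against V40 (-0.42 ± 0.16, adjusted p = 0.0438). Bra035718 was lower at V20 and V40 (-1.05 ± 0.30 and -0.87 ± 0.30, adjusted p = 0.0122 and 0.0289; 0.0751 and 0.147 without NV replicates 2 and 3), and Bra035717 passed no test with all libraries. In the pair with the gap at NV, Bra017553 averaged 4.91 CPM over the libraries other than NV and 4.29 over those other than V40T10. It thus met the rule through NV and through V40T10, and its log2 fold change of -1.34 ± 0.34 at V20 is a description. Bra017552, which had 11.1, 0 and 0 scaled CPM at NV, was not called in any comparison. Without NV replicates 2 and 3 it was lower at V20 and V40 than in NV replicate 1 (-1.57 and -0.89, adjusted p = 0.00128 and 0.0341) and higher at V40T10 than at V40 (1.55, adjusted p = 5.03e-05). With all libraries its log2 fold change at V40 against NV had the other sign, 0.66 (adjusted p = 0.609).

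**Figure D5:**
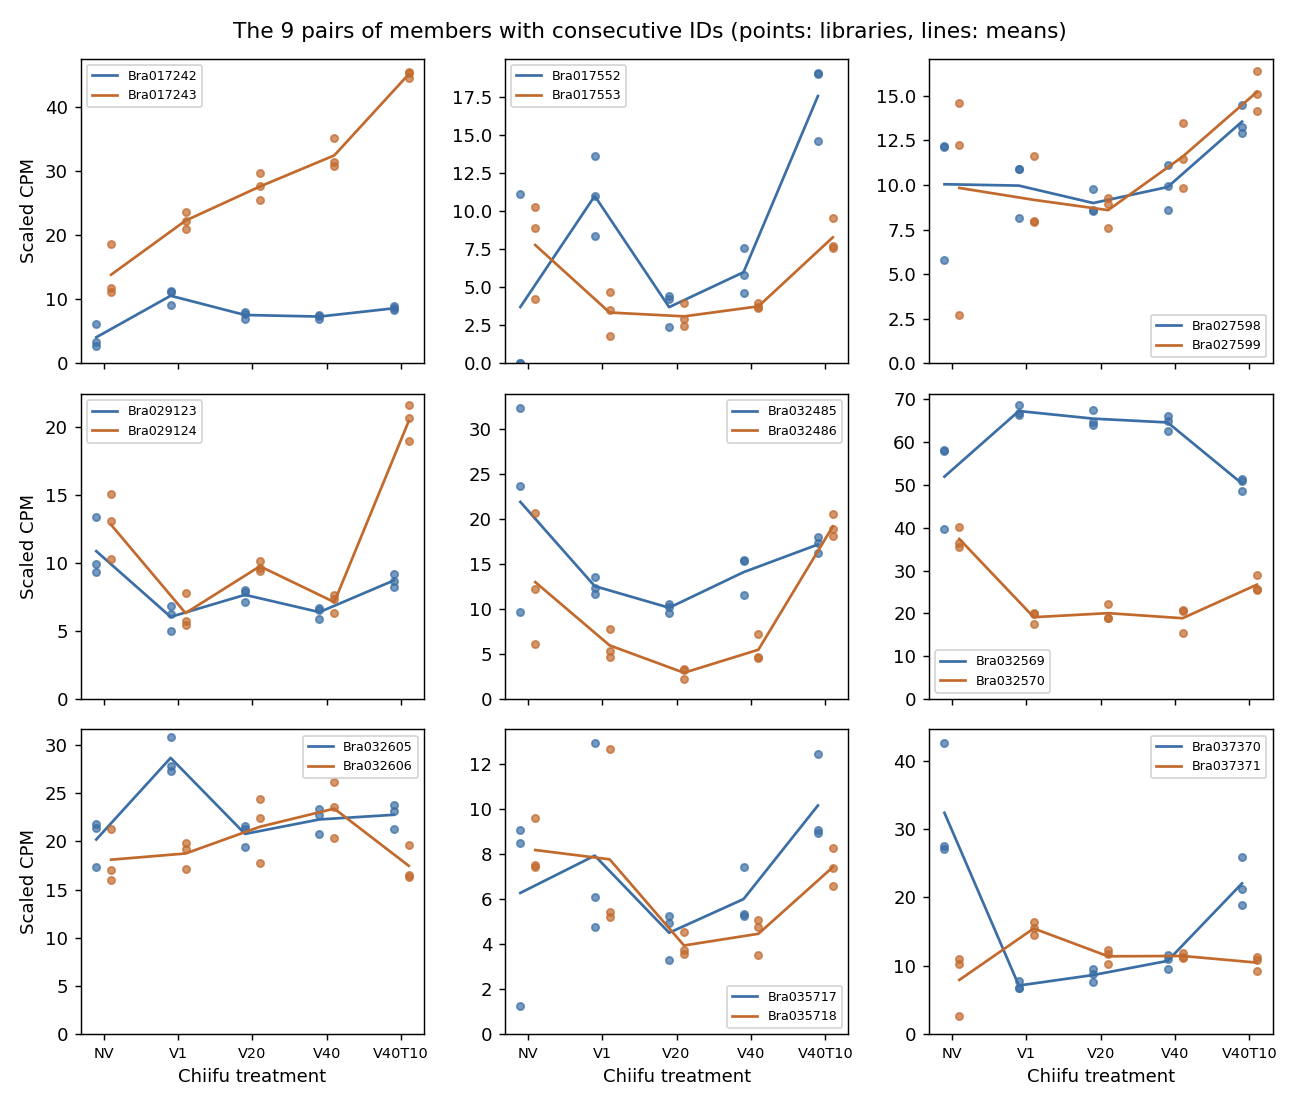
Scaled CPM of the 9 pairs of members with consecutive IDs in Chiifu, by treatment from NV to V40T10. Points are the 3 libraries of a treatment and lines join their means. In Bra037370 and Bra037371 the lines cross after 1 day of cold, Bra017243 climbs to 45.2 at V40T10, and the NV points of Bra017552 lie at 11.1 and 0.

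Of the 3 members with the highest means in Chiifu, 2 had a gap at NV. Bra019400, the highest with 81.0 CPM, had 101 ± 11.5 scaled CPM at V1, against 95.9, 0.0476 and 45.2 at NV, and with all libraries it was called in no comparison (V1 against NV, log2 fold change 1.11 ± 0.92, adjusted p = 0.341). It was, without NV replicates 2 and 3, lower at V40 than at NV (-0.38, adjusted p = 0.0482, against 0.65 and an adjusted p of 0.592 with all libraries) and higher at V40T10 than at V40 (0.42, adjusted p = 0.00336). Bra026913 had 141, 132 and 127 scaled CPM at V1, against 35.4, 0 and 32.9 at NV (log2 fold change 2.56 ± 0.88, adjusted p = 0.0275; 1.97 and adjusted p = 1.66e-07 without NV replicate 2). Its log2 fold changes at V20 and V40, 1.86 and 1.74, did not pass the test (adjusted p = 0.0992 and 0.117), and without NV replicate 2 they were 1.27 and 1.15 and did (adjusted p = 6.87e-06 and 1.34e-05). Bra013702, without a gap, had 101, 85.9 and 91.0 scaled CPM at V1, against 60.3, 65.5 and 48.2 at NV. Its smaller change of 0.67 ± 0.13 on the log2 scale had an adjusted p of 7.76e-04.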

How the data were processed

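Whole-plant RNA of 30 libraries was counted by the authors. Each deposited table holds whole-number counts of reads per gene, not normalized, in 42186 gene rows (41018 Bra, 1168 ENSRNA) and 5 summary rows, which stayed out of totals and tests. FastQC, TopHat2, HTSeq and edgeR are named, per the submitters' processing notes. Genome build, annotation and strand setting: not given in the sources used here. Libraries were made with a stranded mRNA kit, per the labels' protocols. Alignments at several places were 2.67 to 7.29% and reads on no gene 6.91 to 11.6% of alignments recorded per library, so near-identical copies are counted in part, and overlapping or antisense genes are uncertain. A RefSeq table (assembly CAAS_Brap_v3.01) named 1 of the 42186 IDs and no member.

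The members, lists and tests were chosen with earlier results of these data known. CPM for the rule divides by the summed gene rows. Chiifu libraries were tested with edgeR 4.0.16 (R 4.3.3): TMM scaling, filterByExpr (27224 rows left), quasi-likelihood F test with 1 mean per group, Benjamini-Hochberg adjustment, threshold 0.05. Standard errors come from the F statistic. The model was tested on simulated data with the same spread for all rows and groups. The Chiifu NV libraries differed more, with chi-square per degree of freedom of 47.4 to 109 between them. The simulation thus does not cover calls against NV. No pair of Chiifu libraries of a group was a duplicate (chi-square per degree of freedom 6.21 or more). Named genes were all consecutive runs, the 3 highest means, the 2 greatest rises and falls per comparison among called genes whose groups did not overlap, the 3 rows on each side of 5 CPM, and the lowest and highest relative spread of group means. Alternatives were DESeq2 1.42.0, its size factors in edgeR, limma 3.58.1 voom with a weight per group, no filter, all 30 libraries, only the groups compared, a replicate block, each library left out, and other rule thresholds.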

Additional observations from a re-analysis of the deposited data

Results flagged for a closer look

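Rows otherwise counted only in LP08 gave a signal in libraries labelled Chiifu NV. Of 120 Bra rows with at least 5 CPM in LP08 and at most 3 counts over the 12 later Chiifu libraries, 14 had more than 3 counts in Chiifu NV replicate 2 and 9 in NV replicate 3. In NV replicate 2 the levels of these 14 ran from 0.184 to 21.5 CPM, with a median of 2.17, while their LP08 means had a median of 8.40 CPM. In NV replicate 3 the levels of the 9 ran from 0.268 to 56.7 CPM, with a median of 1.77, while their LP08 means had a median of 8.33 CPM. NV replicate 1 had none. The same libraries lack 18 and 6 of the members. The source of this was not tested.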

How the results depend on the processing

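Among the called changes named for their size, none reversed its direction under the alternatives run, while Bra019400 and Bra017552, uncalled at V40 against NV with all libraries, changed sign without Chiifu NV replicates 2 and 3 (to -0.38 and -0.89 on the log2 scale). With only the 2 groups compared in the fit, the members called higher and lower were 11 and 23 for V1 against NV, 12 and 25 for V20, 11 and 21 for V40, 10 and 6 for V40T10 against NV, and 70 and 33 for V40T10 against V40. With limma voom and a weight per group, 19 were lower at V20, 15 higher and 16 lower at V40, 5 lower at V40T10 against NV, 69 higher and 29 lower at V40T10 against V40, and 63 differed among any groups. With Chiifu NV replicates 2 and 3 left out together, chosen after seeing the data, 74 were higher and 30 lower at V40T10 against V40. The cause was not tested. Over all rows tested, the fit of only 2 groups called 3031 higher and 3749 lower at V1 (6085 and 6975 with all groups), 2118 and 2878 at V20 (5339 and 5827), 2300 and 2967 at V40 (5432 and 6116), 2048 and 2264 at V40T10 against NV (4682 and 5448), but more, 8710 and 8587, at V40T10 against V40 (6137 and 5960). Voom called 3348 and 3516, 2166 and 2627, 2339 and 2835, 1393 and 2498, and 9118 and 8764 in the same order, and 11619 for any difference (20115).

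Leaving out 1 library at a time gave 21 to 41 members higher and 32 to 46 lower at V1, 19 to 34 and 29 to 52 at V20, 20 to 39 and 29 to 45 at V40, 20 to 43 and 13 to 27 at V40T10 against NV, 29 to 58 and 15 to 28 at V40T10 against V40, and 91 to 119 for any difference. In the fits that gave these ends, the shares of all rows tested were 18.1% to 24% and 21.2% to 27.4% at V1. They were 15.6% to 20.8% and 16.6% to 25.3% at V20, and 15.8% to 21.4% and 17.6% to 25.1% at V40. For V40T10 against NV they were 11.7% to 19.3%, and 15.7% or 16.6% to 22.4%. For V40T10 against V40 they were 17.7% to 29.9% and 18.3% to 29.7%, and for any difference 68.1% to 85%. Counts more than 1.5 times off were 43 higher at V40T10 against NV without NV replicate 1 and 13 lower without V40T10 replicate 1 or 3. The rule itself found 174 to 189 members when replicates of 1 number were left out. The limit of 3 LP08 counts was then kept over fewer libraries, which made it looser. There were 82 members with no LP08 count at all, 441 at 1 CPM (50 in runs) and 89 at 10 CPM.

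Same-numbered libraries of different groups showed no common deviation over all pairs, with r from -0.289 to 0.439 and 9 of 30 pairs over 0.1. Their median r was -0.0121, against -0.00106 for libraries of different number. Between V1 and V20, r was 0.415 for replicates 1, -0.102 for replicates 2 and 0.438 for replicates 3. With 3 libraries per group, these values do not decide whether the numbers pair them. With the replicate block, 28 members were higher and 37 lower at V1, beside 22.2% and 24.5% of all rows tested. At V20 there were 25 and 35, beside 19.2% and 20.1%, and at V40 29 and 40, beside 19.7% and 21.2%. For V40T10 against NV there were 29 and 17, beside 17.2% and 18.5%. For V40T10 against V40 there were 38 and 19, beside 22.3% and 21.3%. Any difference was called for 95, beside 72.3%. Under the block Bra000706 lost its call (adjusted p = 0.0523). Depth limits members near 5 CPM, and 3 libraries per group limit every test.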
